A study of Danio rerio with 6 samples.

Results

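The genes described here are 10 chaperones and stress sensors of the endoplasmic reticulum (ER), chosen by symbol: hspa5, hsp90b1, xbp1, atf6, pdia4, pdia6, canx, dnajb11, hyou1 and sdf2l1. They gave 11 entries among 30258 in the gene table, because hsp90b1 is listed under 2 gene IDs. All 11 were joined to transcript counts and all 11 passed the filter on low counts, among 16776 genes tested. RNA of unchallenged zebrafish larvae was sequenced at 5 days post fertilization (dpf) in 3 libraries of homozygous tlr2 mutants (tlr2-/-) and 3 of homozygous wild types (tlr2+/+), and no other agent was given to either group. The mutants carry the sa19423 allele, made by ENU mutagenesis, and carriers had been outcrossed repeatedly to the ABTL strain. The larvae came from 3 pairs of adult fish of either genotype, each bred by a single cross, and the libraries hold RNA of pooled whole larvae, which the labels call whole embryos. Wild type and mutant larvae therefore had different parents, and an effect of the mutation cannot be told apart from other alleles that the parents of a genotype shared. Both entries of tlr2 have an authors' mean of 0 over the 6 libraries, so the gene itself checks no label.

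The ER folds the proteins that a cell secretes or places in its membranes. BiP, the product of hspa5, is the Hsp70 chaperone of this compartment. When unfolded proteins accumulate, the membrane sensors Ire1, Perk and Atf6 start the unfolded protein response, in which Ire1 splices the xbp1 mRNA, and Atf6 and the spliced Xbp1 activate chaperone genes. These roles are best known from mammals. In zebrafish larvae, cells that secrete heavily, such as those of the exocrine pancreas, the liver and the cartilage, are among those in which this machinery is prominent. A whole larva mixes all of these cells, so fewer cells of a type and less RNA per cell cannot be told apart.

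The libraries held between 17854737 and 33403126 estimated reads. The wild type replicate 3 library stood apart, with 19194 genes at 10 reads or more against 11906 to 17126 in the others. By this count detection was lowest in wild type replicate 2 (11906), then replicate 1 (12944), and every mutant library lay higher, at 15535 to 17126. Depth did not follow that order, at 30584310 reads in wild type replicate 1 and 17854737 in mutant replicate 3. What low detection there does to sparse genes, such as atf6 and the second hsp90b1 entry, was not tested. The TMM scaling factor was 1.59 for wild type replicate 3, against 0.789 to 0.983 elsewhere. Values are given as CPM (read counts per 1000000 reads, divided by that factor), which compares libraries for 1 gene, and as TPM (the same kind of share, also scaled for transcript length), which compares genes. Estimates for xbp1, atf6, hspa5, canx and the hsp90b1 entry ENSDARG00000114206 are given with and without wild type replicate 3. For single genes of the lists below, no estimate without that library is given. Summed markers of photoreceptors and brain neurons were at 13627 to 17203 CPM in mutants against 7024 to 9927 in wild types, over 14 symbols. By entry, the log2 fold change of mutants over wild types in edgeR was positive for 9 of 15 and negative for 6. Its median over these entries was 0.06. At an unadjusted p under 0.05 in edgeR, 2 of the 15 were higher and 0 lower, against 1.73% and 1.99% of all genes. Of these markers opn1lw1 was at 0 in 2 wild type and 2 mutant libraries. The ranges of that sum on the TPM scale, 7132 to 8370 against 4763 to 7222, overlapped. The summed CPM of the other 6 marker lists overlapped between the genotypes. Exocrine pancreas was at 1407 to 9206 in wild types and 3234 to 8521 in mutants. Liver was at 1747 to 4408 and 1972 to 5012. By entry, 15 of 17 pancreatic log2 fold changes in edgeR were positive and 2 negative, at a median of 0.63. None of these entries had an unadjusted p under 0.05 in edgeR. For liver 9 of 17 were positive and 8 negative, at a median of 0.08. Skin and gut mucous cells had 3 of 10 positive and 7 negative, at -0.41. Neutrophils had 3 of 9 positive and 6 negative, at -0.41. Cartilage, bone and notochord sheath had 10 of 20 positive, at -0.003, and skeletal muscle 8 of 16, at -0.05. With an unadjusted p under 0.05 in edgeR, 2 mucous, 2 cartilage, 1 neutrophil and 1 liver entries were lower, against 1.99% of all genes. Among these lists liver alone had a higher entry, 1 of 17, against 1.73% of all genes. The pancreatic sum rests on 17 of 23 symbols, of which 1 entry of ctrb1 was at 0 in some libraries of both genotypes. The part of these cell types in the values below was not tested.

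The order of the members by level was led by xbp1, at a mean of 180.5 ± 42.8 TPM (SD, n = 6 libraries), followed by hspa5 at 85.8 ± 23.7 TPM. Both stood above the next gene in 6 of 6 libraries, with no overlap of ranges. Next came pdia6 (21.8 TPM), hsp90b1 (18.4 TPM for ENSDARG00000003570) and canx (16.1 TPM). The lower levels were those of sdf2l1 (7.82 TPM), hyou1 (5.77 TPM), pdia4 (2.61 TPM), dnajb11 (2.11 TPM) and atf6 (2.00 TPM). From pdia6 downward every neighbouring pair had overlapping ranges, so neighbours are not separated by more than the spread between libraries. Genes further apart in the order could be, since pdia6 was at 8.15 TPM or more and pdia4 at 5.14 TPM or less. In CPM, which does not allow for length, xbp1 and hspa5 remained first and second, whereas canx moved to rank 3 and pdia6 to rank 5.

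**Figure D1:**
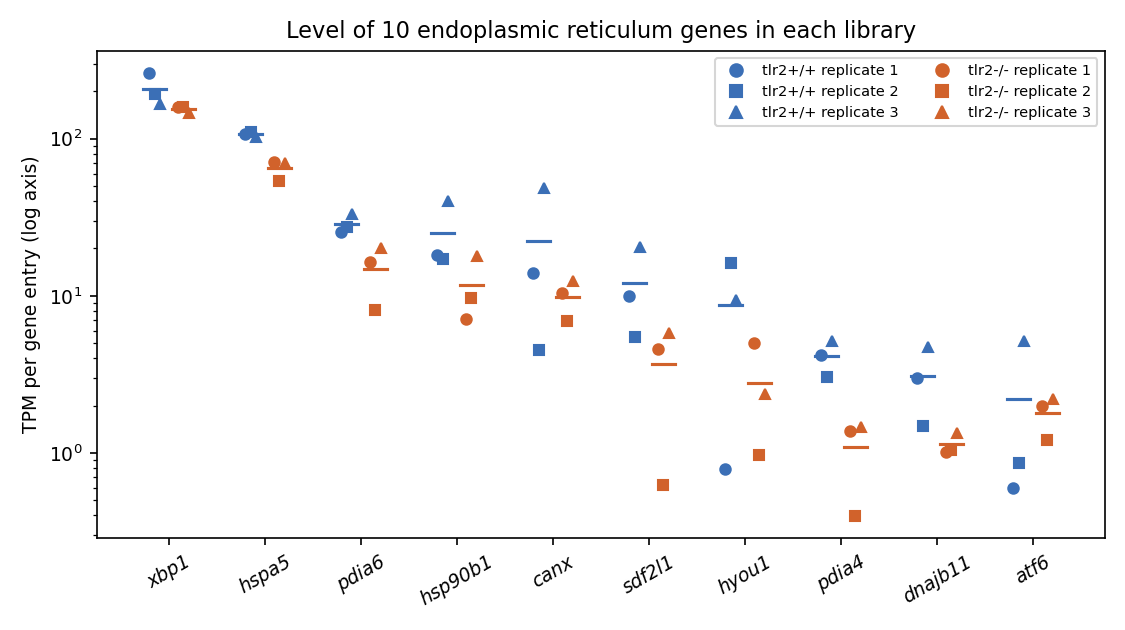
TPM on a log axis (y) for 10 gene entries (x, in order of their mean level) in 3 tlr2+/+ (blue) and 3 tlr2-/- (orange) libraries, with marker shapes for replicate numbers and bars for group means. xbp1 and hspa5 lie above the other genes in every library, and the second hsp90b1 entry, listed at 0 in 3 libraries, is not drawn.

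No member passed the adjusted threshold in the comparison of tlr2-/- with tlr2+/+ larvae. The adjusted p was 0.99975 for each of the 11 entries (edgeR quasi-likelihood test, Benjamini-Hochberg over all 16776 genes), and 1 gene of all those tested passed, or 0.00596%. At an unadjusted p under 0.05 edgeR called 0 members, against 1.99% of all genes as lower and 1.73% as higher, and DESeq2 called 0 members at either threshold. On the sign alone, the estimate was negative for 9 of 11 entries, against 48.9% of all genes. The median over the members was -0.44 and that over all genes 0.02. In limma-trend on log2(TPM + 1) no member passed the adjusted threshold either, and hspa5, pdia4, pdia6 and sdf2l1 had an unadjusted p under 0.05. These are 4 of 10 entries in a fit where the median of all genes was itself -0.35. The share of all genes under that unadjusted threshold is not given for this fit, so the 4 cannot be read as an excess. The common biological coefficient of variation over all genes was 1.05, a spread between replicates about as large as their mean.

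**Figure D2:**
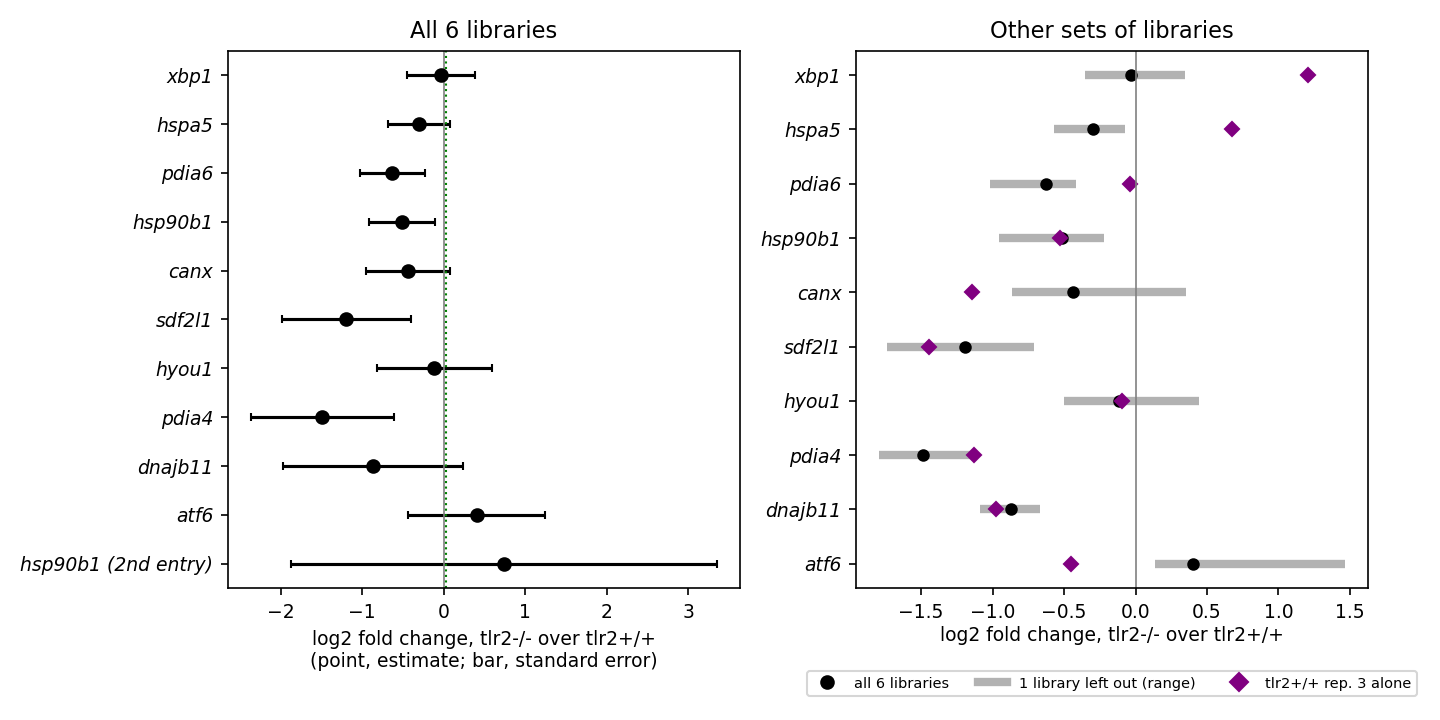
Log2 fold change of tlr2-/- over tlr2+/+ (x) for each member (y). On the left are edgeR estimates from 6 libraries with standard errors and the median of all genes (0.02, dotted green), and on the right the same estimates (black), their range when 1 library is left out (grey bars) and the estimate with wild type replicate 3 as the only wild type library (purple). Of the 11 entries 9 lie below 0 on the left, and on the right xbp1 and hspa5 lie above 0 when wild type replicate 3 stands alone.

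Among the stress sensors, xbp1 (ENSDARG00000035622), the transcription factor spliced by Ire1, was at 515, 421 and 177 CPM in the wild type libraries. In the mutants it was at 331, 414 and 342 CPM. The mutant values lay within the wild type range, and the log2 fold change was -0.03 ± 0.41 (SE). No direction can be given for it, since leaving out any one of 4 libraries (wild type replicates 1 and 2, mutant replicates 1 and 3) turned the sign. Wild type replicate 3 was the lowest of all 6 libraries. Without that library the log2 fold change of xbp1 was -0.36, and with it as the only wild type library 1.204, while leaving out wild type replicate 1 gave 0.35. In TPM, xbp1 was at 262, 191 and 167 in wild types and 158, 158 and 146 in mutants. These values do not overlap, and the exact permutation test gave p = 0.1, the smallest that 3 against 3 libraries allow. Of the 4 transcript rows with reads, ENSDART00000124467.4 held at least 98.98% of the xbp1 reads in each library. Splicing by Ire1 was not measured, since the values count reads per annotated transcript.

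The sensor and transcription factor atf6 (ENSDARG00000012656), which is cut in the Golgi to release its active part, was at 2.00, 3.32 and 11.1 CPM in wild types. The mutant libraries had 7.26, 5.69 and 8.90 CPM. All 3 mutant values of atf6 lay between wild type replicates 2 and 3, and the log2 fold change was 0.41 ± 0.84 (SE). The estimate was 1.47 without wild type replicate 3 and -0.45 with that replicate as the only wild type. In wild type replicates 1 and 2 atf6 had 60 reads each, against 590 in replicate 3. Fewest genes were detected in those same libraries, and the part of this in the estimate of atf6 was not tested.

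The chaperone hspa5 (ENSDARG00000103846) was at 318, 362 and 160 CPM in wild type libraries and at 221, 211 and 249 CPM in mutants. Wild type replicate 3 was the lowest of the 6 and the other 2 wild types the highest, so the groups overlapped. The log2 fold change was -0.30 ± 0.38 (SE, unadjusted p = 0.440 in edgeR). Without wild type replicate 3 it was -0.57, with an unadjusted p of 0.0277 in edgeR and an adjusted p of 0.259, and with that replicate as the only wild type 0.67. Without wild type replicate 2 it was -0.07. In TPM, hspa5 was at 107, 110 and 103 in wild types and 70.6, 54.0 and 70.5 in mutants. On this scale wild type replicate 3 was close to the other wild types, at a mean of 107 ± 3.72 (SD, n = 3), and all 3 mutants were lower, at 65.0 ± 9.57 (exact permutation p = 0.1, the smallest possible). CPM but not TPM was divided by the TMM factor, which was 1.59 for this library.

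The partners of BiP were less abundant. The product of dnajb11 (ENSDARG00000015088), known as ERdj3 in mammals, is a J-domain protein that passes substrates to BiP. It was at 5.44, 3.27 and 5.91 CPM in wild types and 2.11, 2.85 and 3.05 CPM in mutants. The groups did not overlap, yet the log2 fold change of -0.87 had a standard error of 1.102. The mutant libraries held 46 to 54 reads of dnajb11 each. In mammals Sdf2l1 forms a complex with ERdj3 and BiP, and sdf2l1 (ENSDARG00000035631) was at 11.3, 7.20 and 14.8 CPM in wild types and 5.65, 1.00 and 7.93 CPM in mutants. Mutant replicate 2, with 19 reads, was the lowest, and mutant replicate 3 exceeded wild type replicate 2. The log2 fold change of sdf2l1 was -1.19 ± 0.80 (SE, unadjusted p = 0.158 in edgeR), and -0.71 without mutant replicate 2.

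The nucleotide exchange factor of BiP, hyou1 (Grp170, ENSDARG00000013670), was at 2.57, 17.2 and 11.5 CPM in wild types and 11.5, 5.53 and 11.8 CPM in mutants. The log2 fold change was -0.12 ± 0.71 (SE), and wild type replicates 1 and 2 were the lowest and the highest of the 6 libraries. The transcript rows behind the gene differed between libraries. In wild type replicate 1 all 77 reads were assigned to ENSDART00000193195.1 (2951 bases), which had 0 reads in the other 5 libraries. In wild type replicate 2 ENSDART00000149472.2, a row of 734 bases, held 53.0% of the hyou1 reads and 14.4 of the 16.1 TPM of the gene. The longer row, ENSDART00000100032.5 (3959 bases), held 85.7% in wild type replicate 3, 86.1% in mutant replicate 1 and all reads in mutant replicates 2 and 3. When the fit took transcript lengths into account, the log2 fold change of hyou1 was -1.34 in place of -0.12, and without wild type replicate 2 it was 0.44 in edgeR, so no direction can be given for this gene.

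The Hsp90 chaperone of the ER, Grp94, is encoded by hsp90b1. Its main entry (ENSDARG00000003570) was at 55.5, 58.5 and 69.5 CPM in wild types and 23.5, 39.8 and 65.4 CPM in mutants. Mutant replicates 1 and 2 lay below the wild types and mutant replicate 3 within their range, with a log2 fold change of -0.51 ± 0.40 (SE, unadjusted p = 0.227 in edgeR). The estimate ranged from -0.95 without mutant replicate 3 to -0.22 without mutant replicate 1. The second entry (ENSDARG00000114206) had 0 reads in wild type replicates 1 and 2 and in mutant replicate 1, which allows up to 0.1, 0.166 and 0.138 CPM (3 reads). It was at 2.38 CPM in wild type replicate 3 and at 1.58 and 2.44 CPM in mutant replicates 2 and 3. The log2 fold change was 0.74 ± 2.61 (SE). Reads can be shared between entries of 1 symbol, and sharing between these entries was not tested. Without wild type replicate 3 both remaining wild types were at 0, and the fitted value of 7.83 is then no measure of size.

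Among the protein disulfide isomerases, which form and rearrange disulfide bonds, pdia4 (ERp72 in mammals, ENSDARG00000018491) was at 9.40, 7.98 and 7.12 CPM in wild types. The mutant libraries had 3.45, 1.26 and 4.02 CPM. All 3 mutants were below all 3 wild types, and pdia4 had the most negative log2 fold change of the 11 entries, -1.49 ± 0.88 (SE, unadjusted p = 0.114 in edgeR). The reads were 282, 144 and 377 in wild types and 75, 24 and 66 in mutants. With 1 library left out, the estimate stayed between -1.79 and -1.13. In TPM pdia4 was at 4.13 ± 1.04 in wild types and 1.08 ± 0.60 in mutants (SD, n = 3 each, exact permutation p = 0.1, the smallest possible).

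The related isomerase pdia6 (P5, ENSDARG00000009001) was at 56.8, 69.1 and 41.6 CPM in wild types and 30.6, 24.5 and 53.2 CPM in mutants. Mutant replicate 3 lay within the wild type range, and the log2 fold change was -0.63 ± 0.40 (SE, unadjusted p = 0.138 in edgeR). It ranged from -1.02 without mutant replicate 3 to -0.41 without mutant replicate 2, and was -0.04 with wild type replicate 3 as the only wild type. In TPM the values were 25.5, 27.5 and 33.2 in wild types and 16.5, 8.15 and 20.0 in mutants, without overlap.

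Calnexin, a membrane lectin that holds glycoproteins until they are folded, is encoded by canx (ENSDARG00000037488). It was at 57.8, 21.6 and 124 CPM in wild types and 47.8, 40.4 and 62.4 CPM in mutants. Wild type replicates 2 and 3 were the lowest and the highest of all, and the mutants lay between them. The log2 fold change of -0.44 ± 0.52 (SE) became 0.35 without wild type replicate 3 and was -1.14 with it as the only wild type.

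In CPM, 2 of 11 entries (dnajb11 and pdia4) were lower in all mutants than in all wild types, against 6.2% of all genes, and 0 were higher, against 6.87%. In TPM, 5 of 11 entries (hspa5, xbp1, pdia4, pdia6 and dnajb11) were lower without overlap, against 12.9% of all genes. In limma-trend on log2(TPM + 1) the median difference of all genes was -0.35, against 0.02 in edgeR, and that of the members was -0.92. The 2 fits differ in unit, model and filter, and which of these moved the median of all genes was not tested. Relative to all genes, the members' median was thus -0.57 on that scale and -0.46 in edgeR. These 2 values rest on unlike sets, 10 entries among 12676 genes in limma-trend and 11 among 16776 in edgeR. The entry missing from limma-trend was the second of hsp90b1, at 0.74 in edgeR. Summed over the members, wild types had 446, 377 and 438 TPM and mutants 277, 241 and 281 TPM, without overlap. Summed CPM gave another picture, at 1033, 971 and 625 in wild types and 684, 748 and 811 in mutants, and these ranges overlap. The sum is dominated by xbp1, which held 38.1% to 65.4% of the members' TPM. Without xbp1 the wild types had 183, 186 and 271 TPM and the mutants 119, 83.4 and 135 TPM, without overlap. In CPM without xbp1 they had 518, 549.9 and 448 against 353, 334 and 468, and these overlap.

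The libraries of a genotype did not move as a block across these genes. Wild type replicate 3 held the highest CPM for 5 entries and the lowest for 2, namely hspa5 and xbp1. Wild type replicate 1 was highest for 2 and lowest for 3 of the entries, with the tie at 0 in the second hsp90b1 entry counted there. Mutant replicates 1 and 2 were highest for none of the 11 entries, and mutant replicate 3 for 1, the second hsp90b1 entry. Averaged over the 10 other entries, the deviation of log2 CPM from each gene's mean was 0.10, 0.17 and 0.42 in wild types and -0.23, -0.67 and 0.21 in mutants. Mutant replicate 3 therefore lay among the wild type values.

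**Figure D3:**
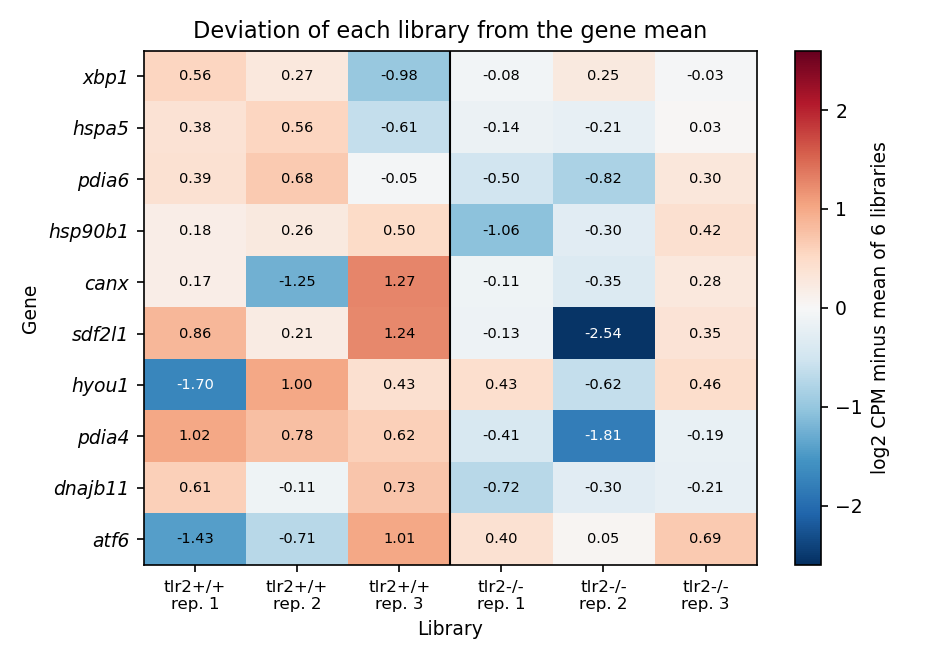
Log2 CPM of each library (x) minus the mean over the 6 libraries (colour and number in each cell) for 10 members (y), with a line between tlr2+/+ and tlr2-/- libraries. Wild type replicate 3 is lowest for xbp1 and hspa5 and highest for canx, sdf2l1, hsp90b1, dnajb11 and atf6, and the lowest cell of all is sdf2l1 in mutant replicate 2.

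Levels relative to hspa5 within a library do not depend on scaling between libraries. On this measure pdia4 was at 3.91%, 2.78% and 5.00% of the hspa5 TPM in wild types and at 1.96%, 0.739% and 2.09% in mutants, the only one of the other 10 entries that did not overlap. Relative to hspa5, 3.43% of 16775 genes were lower in mutants without overlap. The ratio of dnajb11 overlapped, at 1.35% to 4.62% in wild types and 1.43% to 1.93% in mutants. That of xbp1 was 163% to 245% in wild types and 208% to 293% in mutants. The ratio of canx spanned 4.11% to 47.2% in wild types and 12.8% to 17.5% in mutants, so the wild types were the more variable group for it.

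Genes that work beside these members were described by 7 lists with 203 tested entries. No entry passed the adjusted threshold in edgeR. At an unadjusted p under 0.05 in edgeR 6 of 203 entries were higher and 13 lower, against 1.73% and 1.99% of all genes. The estimates of 117 were negative, against 48.9% of all genes, at a median of -0.12. In DESeq2 30 genes passed the adjusted threshold over all genes, none of them a member.

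Of 32 tested co-chaperones and lectin chaperones of the ER, 22 were negative in log2 fold change (median -0.32, or -0.058 without wild type replicate 1) and 2 an unadjusted p under 0.05 in edgeR, both lower. The collagen chaperone serpinh1b (Hsp47) was at 14.7, 86.4 and 5.65 CPM in wild types and 2.25, 0.896 and 5.43 CPM in mutants, a log2 fold change of -3.64 ± 1.09 (SE) in which wild type replicate 2 stands far above the rest. The BiP co-chaperone dnajc3b had 10.1 ± 3.44 CPM in wild types and 2.87 ± 0.92 CPM in mutants (SD, n = 3 each). Its log2 fold change was -1.81 ± 0.77 (SE). For fkbp11, a prolyl isomerase of the ER, it was -1.21 ± 0.63 (SE) in the entry ENSDARG00000111059 and 0.26 in the other entry, ENSDARG00000037000. Calreticulin, the soluble relative of calnexin, is encoded by calr, which was at 0.0667 CPM in wild type replicate 1 and at 7.85 to 14.2 CPM in the other 5 libraries. With that library its log2 fold change was 0.24 ± 1.17 (SE).

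Of 23 tested disulfide isomerases and ER oxidases, 13 were negative (median -0.40, or 0.04 without mutant replicate 2) and 0 had an unadjusted p under 0.05 in edgeR. The glycoprotein isomerase pdia3 (ERp57), a partner of calnexin, was at 174, 126 and 156 CPM in wild types and 97.2, 101 and 113 CPM in mutants. These CPM values did not overlap, and the log2 fold change was -0.55 ± 0.32 (SE). In TPM the groups overlapped, at 65.3 to 166 in wild types and 54.7 to 71.6 in mutants. With a mean of 89.3 TPM pdia3 was about as abundant as hspa5. For the classical isomerase p4hb the log2 fold change was -0.45 ± 0.41 (SE) in the entry ENSDARG00000105116 and -0.40 ± 2.47 (SE) in the sparse entry ENSDARG00000116847. The membrane isomerases tmx1 and tmx3a had -2.04 ± 1.12 and -0.96 ± 0.60 (log2 fold change ± SE), and the groups overlapped in CPM for tmx1 but not for tmx3a.

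Of 23 tested sensors and effectors of the unfolded protein response, 11 were negative (median 0.04, or 0.43 without wild type replicate 3). With an unadjusted p under 0.05 in edgeR, 1 was higher and 2 were lower. The higher one was tegt (Bax inhibitor 1, an ER membrane protein that binds Ire1 in mammals), at 140, 142 and 83.4 CPM in wild types and 261, 292 and 240 CPM in mutants, a log2 fold change of 1.12 ± 0.35 (SE). The lower ones were mbtps1, the protease that makes the first cut in Atf6, at -1.56 ± 0.59 in the entry ENSDARG00000109507, and trib3, a pseudokinase induced by Atf4 and Chop in mammals, at -0.997 ± 0.44 (log2 fold change ± SE). The other entry of mbtps1, ENSDARG00000014634, had a log2 fold change of -0.63 and did not pass that threshold. In mutants mbtps1 (ENSDARG00000109507) was at 7.42 ± 5.07 CPM against 21.9 ± 7.75 CPM in wild types, and trib3 at 11.8 ± 1.64 CPM against 23.5 ± 3.89 CPM (SD, n = 3 each).

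The other sensors were sparse. Ire1 is encoded by ern1, with 0 reads in wild type replicates 1 and 2, the libraries where fewest genes were detected. It was at 1.55 CPM in wild type replicate 3 and 2.85, 0.896 and 0.854 CPM in mutants. Perk is encoded by eif2ak3, with a log2 fold change of -0.61 ± 1.44 (SE). Chop, the factor linked to cell death under lasting stress, is encoded by ddit3, with -0.14 ± 1.36 (SE). The factor translated more when Perk is active, atf4a, was abundant at 736, 739 and 283 CPM in wild types and 886, 1104 and 911 CPM in mutants. Its groups did not overlap, in the direction opposite to most members, and its log2 fold change was 0.72 ± 0.42 (SE). In CPM, wild type replicate 3 was the lowest library for atf4a and tegt, as for hspa5 and xbp1. In TPM that library was the lowest for atf4a alone of these genes. There tegt was at 258 TPM, against 222 and 198 TPM in wild type replicates 1 and 2.

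ER-associated degradation removes misfolded proteins, and 19 of its 35 tested entries were negative (median -0.03, or 0.26 without wild type replicate 1). The ubiquitin ligases of the ER membrane rnf139 and march6 differed in sign, with rnf139 at 0.996 ± 0.43 and march6 at -0.89 ± 0.39, and aup1 was at -1.04 ± 0.44 (log2 fold change ± SE). In the list of translocon, signal peptidase and glycosylation 17 of 37 were negative (median 0.04, or 0.26 without wild type replicate 1). Its gene krtcap2, a subunit of the oligosaccharyltransferase, was at 10.97 ± 3.42 CPM in wild types and 29.4 ± 4.67 CPM in mutants (SD, n = 3 each). For the translocon channel sec61a1 the CPM were 205, 126.2 and 146 in wild types and 86.6, 125.5 and 80.4 in mutants, just without overlap, and the log2 fold change was -0.71 ± 0.35 (SE). The log2 fold change of magt1, another subunit of the transferase, was -1.25 ± 0.62 (SE).

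In the list of COPII coats and ER exit 19 of 32 were negative (median -0.26, or 0.10 without wild type replicate 3). The cargo lectin lman2 was at 27.1 ± 8.21 CPM in wild types and 9.93 ± 1.41 CPM in mutants (SD, n = 3 each), a log2 fold change of -1.45 ± 0.45 (SE). The p24 cargo receptors tmed5 and tmed7 had opposite signs, at -1.55 ± 0.60 and 1.07 ± 0.41 (log2 fold change ± SE). Cytosolic and mitochondrial relatives of Hsp70 and Hsp90 had the lowest median of the lists, -0.68, or -0.32 without wild type replicate 2, with 16 of 21 negative. The heat-inducible hsp70l was at 14.97, 33.1 and 4.84 CPM in wild types and 4.41, 2.53 and 4.82 CPM in mutants, and the log2 fold changes of hsp70.3 and hsp90aa1.1 were -1.79 ± 0.72 and -1.23 ± 0.49 (SE). In CPM, hsp70l, hsp70.3 and hsp90aa1.1 were each highest in wild type replicate 2, whose value of hsp70l was 33.1 CPM.

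**Figure D4:**
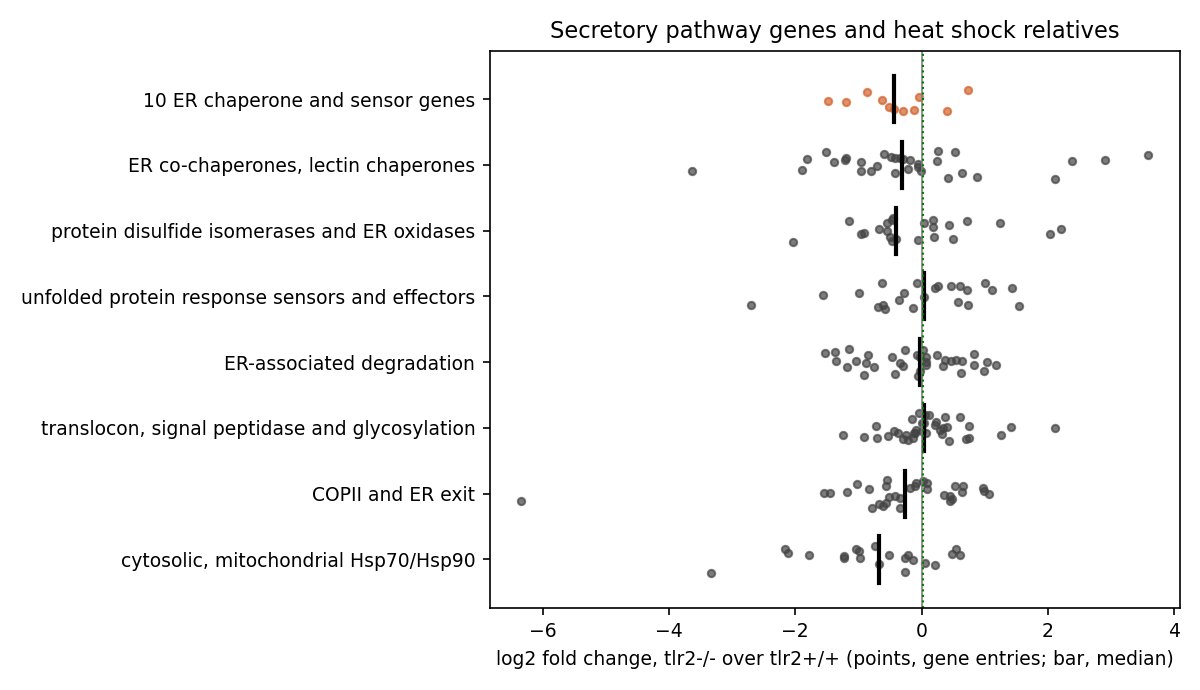
Log2 fold change of tlr2-/- over tlr2+/+ (x, edgeR) for the 11 member entries (orange) and the tested entries of 7 lists (grey, y), with black bars at the medians and the median of all genes (0.02) as a dotted green line. The medians are -0.44 for the members, -0.32 for co-chaperones, -0.40 for disulfide isomerases, 0.04 for the unfolded protein response and -0.68 for cytosolic and mitochondrial Hsp70 and Hsp90 relatives.

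The mean pattern of the members over the 6 libraries was matched against 5800 other genes with a mean of at least 10 CPM. Likeness was the root mean square difference, over the 6 libraries, from the members' mean deviation in log2 CPM. The closest were pwp1 (0.106), dnajc16l (0.118), hacd2 (0.122), si:dkey-28e7.3 (0.141) and cdc14b (0.146). The members themselves lay at distances from 0.320 for the main hsp90b1 entry to 2.22 for the second. The genes named were picked as the closest of 5800, so their smaller distances do not decide whether the members share a pattern. At 16.8, 17.1 and 25.7 CPM in wild types and 14.0, 15.5 and 22.7 CPM in mutants, pwp1 shows the shape of that mean, with replicate 3 highest in either genotype. The zeros of the second hsp90b1 entry weigh on this mean, which was -0.13, -0.07 and 0.61 in wild types and -0.43, -0.42 and 0.43 in mutants with that entry included.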

How the data were processed

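Whole larvae were sequenced in 3 libraries per genotype. The authors made estimated counts per transcript with Salmon 1.2.1 against GRCz11, and deposited TPM and effective lengths from the same run. The authors' deposited mean signal per gene is an average over 6 libraries of counts scaled by DESeq2 1.24.0. Their columns of shrunken log2 fold changes, errors and s-values were not used. The annotation release was not given in the sources used here, nor were the Salmon options.

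Transcript rows were assigned to a gene where the scaled counts of adjacent rows give the authors' mean within a relative difference of 1e-12. This joined 21079 of 23956 genes, which hold 99.909% or more of each library's reads. Another 2873 genes with reads in 1 library and 4 ambiguous ones were left out. Counts were summed per gene, rounded, filtered with the default of edgeR 4.0.16, scaled by TMM and fitted by genotype alone with the robust quasi-likelihood model. SD is over 3 libraries of a genotype unless n is given, and a standard error is the log2 fold change divided by the square root of F. Exact permutation tests were two-sided. Libraries are from separate crosses as far as the sources state, so p-values reflect only how far these samples spread. Floors of 3 reads cover counting error only, since PCR copies were not marked. The edgeR fit was also run on simulated counts, and the outcome is not given here. What size of change these libraries could show is therefore not stated.

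The members and lists were chosen with earlier results of these data known, and the lists, written from general knowledge, are no independent evidence. Named genes are all member entries, the 3 entries of each list with the smallest p, ern1, eif2ak3, calr, p4hb, atf4a and ddit3, and the 5 genes most like the members' mean. Alternatives were a minimum mean CPM of 1 or no filter, RLE scaling, summing the entries of each symbol, transcript length offsets, the replicate number as a block, each library left out, wild type replicate 3 alone, DESeq2 1.42.0, and limma-trend (limma 3.58.1) on log2(TPM + 1) and log2(TPM + 0.1), for genes with a mean of at least 1 TPM. The software was Python 3.11.15 (pandas 2.3.3, numpy 2.4.6, matplotlib 3.10.9) and R 4.3.3.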

Additional observations from a re-analysis of the deposited data

How the results depend on the processing

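No member passed the adjusted threshold under any of the 16 alternatives. The median log2 fold change of the members was -0.44, and it lay between -0.63 and -0.28 with 1 library left out. Relative to the median of all genes in the same fit, it was -0.46, and between -0.65 and -0.29 with 1 library left out. The members' median itself was -0.92 in limma-trend on log2(TPM + 1) and -1.06 on log2(TPM + 0.1), over 10 entries. With wild type replicate 3 as the only wild type library, its spread is taken to be that of the mutants. In that fit the log2 fold change of hspa5 was 0.67 and that of xbp1 1.204. For atf6 it was -0.45, and for the hsp90b1 entry ENSDARG00000114206 -0.66. The cause was not tested.

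Leaving out 1 library gave ranges of -0.36 to 0.35 for xbp1, -0.87 to 0.35 for canx, -0.50 to 0.44 for hyou1 and -0.022 to 7.83 for the hsp90b1 entry ENSDARG00000114206. The log2 fold changes of hspa5, the main hsp90b1 entry, pdia4, pdia6, dnajb11 and sdf2l1 were negative in each of these 6 fits, and that of atf6 positive.

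Over the genes tested, samples of the same replicate number did not deviate together (r = 0.00184, 0.0438 and 0.0566 for the 3 numbers). A correlation over so many genes cannot show a batch that touches only part of them. What samples of the same number share is not stated in the sources used here. With the replicate block in the edgeR fit the members' median was -0.23 and that of all genes 0.33, so the members were at -0.56 relative to all genes. In that fit xbp1 was at 0.094 and hyou1 at 0.16, both under the median of all genes. No member passed the adjusted threshold there, and 64 of all genes did against 1 without the block. Over all genes the adjusted threshold was passed by 30 in DESeq2, 758 with wild type replicate 3 alone, 0 in limma-trend and 0 with length offsets. The values of dnajb11, pdia4, sdf2l1, atf6, hyou1 and the second hsp90b1 entry each rest on under 100 reads in at least 1 library, which limits their precision.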
